A study of Homo sapiens with 9 samples.

Results

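The genes described here are 10 early response genes of the AP-1, EGR and SRF families, EGR1, EGR2, EGR3, FOS, FOSB, JUN, JUNB, JUND, IER2 and SRF. They were chosen by name, as the entries of the count table whose Ensembl identifiers carry these symbols. Both they and the other gene lists below were chosen with earlier results of these data known. All 10 were found among the 60234 gene identifiers of the table, and 7 of them had enough reads to be among the 15847 genes tested. EGR2, EGR3 and FOS had too few. RNA was sequenced from Ramos cells, an established EBV-negative Burkitt lymphoma B cell line, that had 3 h or 6 h of 3 µM CHIR99021 or were untreated (0 h). CHIR99021 is a small molecule that inhibits both forms of the kinase GSK-3. Each time had 3 biological replicates, and a single cell line stands for the disease. No time-matched untreated cultures were analysed here, so the treatment cannot be told apart from the hours in culture, and nothing was sampled between 0 h and 3 h.

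Early response genes are transcribed within minutes of a stimulus from factors that the cell already holds, and most of their mRNAs are short-lived. SRF sits at the head of this response: it binds the CArG box together with ELK factors, which the kinase ERK phosphorylates, or with the actin-regulated coactivators MRTFA and MRTFB. EGR1, EGR2 and EGR3 are zinc finger factors that B cells switch on after antigen receptor signalling. JUN and FOS proteins pair into AP-1, and GSK-3 is known to phosphorylate JUN protein near its DNA-binding region and so to promote its breakdown. That is background on the protein, and no protein was measured here.

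The promoters differ in their motifs. Those of the genes whose levels the results turn on, with that of EGR2 for the motif it shares with EGR1 and SRF, are given 5′ to 3′ as the 250 bases before the annotated start (RefSeq, build GRCh38.p14, on the strand of the gene). Capitals mark matches to the motifs searched: the CArG box bound by SRF, CRE-like TGACGT and the CRE TGACGTCA bound by CREB and ATF factors, GCGNGGGCG bound by EGR factors, TGACATCA, the AP-1-like site of the JUN gene, and the MEF2 site. Both strands were read, and a CRE holds 2 overlapping CRE-like matches.
SRF (chr6:43171019-43171268, plus strand): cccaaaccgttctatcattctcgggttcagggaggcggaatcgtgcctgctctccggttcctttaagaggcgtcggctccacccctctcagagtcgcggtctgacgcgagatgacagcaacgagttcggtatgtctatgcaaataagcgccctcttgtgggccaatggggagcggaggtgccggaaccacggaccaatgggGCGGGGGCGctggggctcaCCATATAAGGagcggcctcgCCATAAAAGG
EGR1 (chr5:138465229-138465478, plus strand): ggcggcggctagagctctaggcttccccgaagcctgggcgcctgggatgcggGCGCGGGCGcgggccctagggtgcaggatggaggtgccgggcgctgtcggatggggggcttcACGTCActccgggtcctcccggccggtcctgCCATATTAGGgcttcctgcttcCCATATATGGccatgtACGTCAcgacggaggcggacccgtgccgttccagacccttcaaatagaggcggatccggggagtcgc
EGR2, the start with a CArG box (chr10:62816367-62816616, minus strand): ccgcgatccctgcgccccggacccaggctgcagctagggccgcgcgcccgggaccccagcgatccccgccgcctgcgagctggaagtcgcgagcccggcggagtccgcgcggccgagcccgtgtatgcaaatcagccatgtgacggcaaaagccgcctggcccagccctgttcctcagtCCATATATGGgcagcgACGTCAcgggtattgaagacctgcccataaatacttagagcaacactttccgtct
JUN (chr1:58784048-58784297, minus strand): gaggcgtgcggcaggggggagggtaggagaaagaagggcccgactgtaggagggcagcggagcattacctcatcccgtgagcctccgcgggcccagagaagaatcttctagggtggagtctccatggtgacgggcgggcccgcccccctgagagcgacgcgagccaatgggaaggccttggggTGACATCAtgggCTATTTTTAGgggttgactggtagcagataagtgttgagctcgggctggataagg
JUND (chr19:18281623-18281872, minus strand): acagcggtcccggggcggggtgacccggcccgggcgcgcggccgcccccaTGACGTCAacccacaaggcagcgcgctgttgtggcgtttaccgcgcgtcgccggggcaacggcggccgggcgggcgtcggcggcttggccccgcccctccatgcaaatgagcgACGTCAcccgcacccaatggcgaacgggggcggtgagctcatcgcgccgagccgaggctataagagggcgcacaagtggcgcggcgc
JUNB (chr19:12791236-12791485, plus strand): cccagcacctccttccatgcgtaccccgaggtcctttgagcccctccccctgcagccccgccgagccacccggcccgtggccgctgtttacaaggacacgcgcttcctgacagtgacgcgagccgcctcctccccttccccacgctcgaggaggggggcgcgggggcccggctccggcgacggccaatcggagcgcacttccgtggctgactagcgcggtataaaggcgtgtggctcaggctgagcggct

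Windows of 250 bases before to 50 bases after the start were found for 9 of the 10 genes, with 12 starts. EGR3 had no window and was not searched. CArG boxes stood in 3 of the 9 genes, against 1.29% of all 35116 promoters in the table. They began 30 and 10 bases before the start of SRF, 105 and 83 bases before that of EGR1 and 71 bases before 1 start of EGR2. CRE-like TGACGT was found in EGR1, EGR2, FOS, FOSB and JUND, so in 5 of 9, against 7.98% of all promoters, and the palindromic CRE only in JUND (1.85% of all promoters). The JUN window held TGACATCA 67 bases before the start (2.61% of all promoters) and a MEF2 site 55 bases before it (0.572%). EGR sites were found in EGR1, EGR2 and SRF (9.43% of all promoters). That of EGR2 began 8 bases after another start than the one printed above. Counted per gene over any of its starts, as for the 9, the shares among 10226 other tested genes were higher for some motifs: 18.64% for the EGR site, 14.36% for CRE-like TGACGT and 3.8% for the CRE, but 1.45% for the CArG box. The canonical AP-1 site TGANTCA was in none of the 9 (7.71% of all promoters), and the JUNB and IER2 windows held none of these motifs. A match describes letters and is not evidence of binding. Sequence outside these windows was not searched, so a window without a match does not show that the gene lacks the site.

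The libraries held 46359911 to 52880876 reads in genes, and a gene with no read could have a level of up to 0.0567 to 0.0647 CPM (counts scaled to library size), by counting error only. All 6 B cell markers were tested and summed to 2416 to 2664 CPM in every library, while the summed T and NK cell, myeloid, and epithelial and fibroblast markers reached at most 0.179, 0.208 and 0.0213 CPM. Replicates within a time differed beyond sampling noise, with a chi-square per degree of freedom of 1.74 for untreated replicates 1 and 2, but 32.6 and 29.2 for untreated replicate 3 against them. In the treated groups it ran from 2.67 to 13.5. The mitochondrial share of reads was 2.94 ± 0.154%, 2.67 ± 0.145% and 2.43 ± 0.179% at 0 h, 3 h and 6 h (SD, n = 3 each), and its part in any result was not tested. Levels below are CPM scaled by TMM factors, which averaged 1.11 (0 h), 0.962 (3 h) and 0.940 (6 h), given as mean ± SD of 3 libraries. Changes are log2 fold changes ± standard error (SE), with p-values from edgeR's quasi-likelihood test adjusted over all tested genes (Benjamini-Hochberg), and a change is called below 0.05. A lower level can mean less RNA per cell or fewer cells with the RNA, which bulk libraries cannot tell apart.

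These genes did not move as a block. At 3 h SRF, EGR1 and JUNB were higher than at 0 h, JUN was lower, and FOSB, JUND and IER2 did not pass the test. By 6 h FOSB, JUND and IER2 were below both earlier times, SRF and JUNB had come down from 3 h but were still called above 0 h (JUNB in only 7 of 18 alternatives), and JUN stayed below 0 h. At 3 h against 0 h 3 of the 7 tested genes were called higher and 1 lower, where 32.8% and 33.5% of all genes tested were called in those directions. At 6 h against 0 h 2 were higher and 4 lower, against 35.7% and 35.0% of all genes. At 6 h against 3 h 1 was higher and 6 were lower, against 21.5% and 21.9% of all genes. The median log2 fold change of the 7 was 0.11, -0.60 and -0.69 in these comparisons, beside -0.01, 0.02 and 0.01 over all tested genes. An F test for any difference among the 3 times called all 7, as it did 77.7% of all genes tested. The comparisons with 0 h share the untreated libraries.

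**Figure D1:**
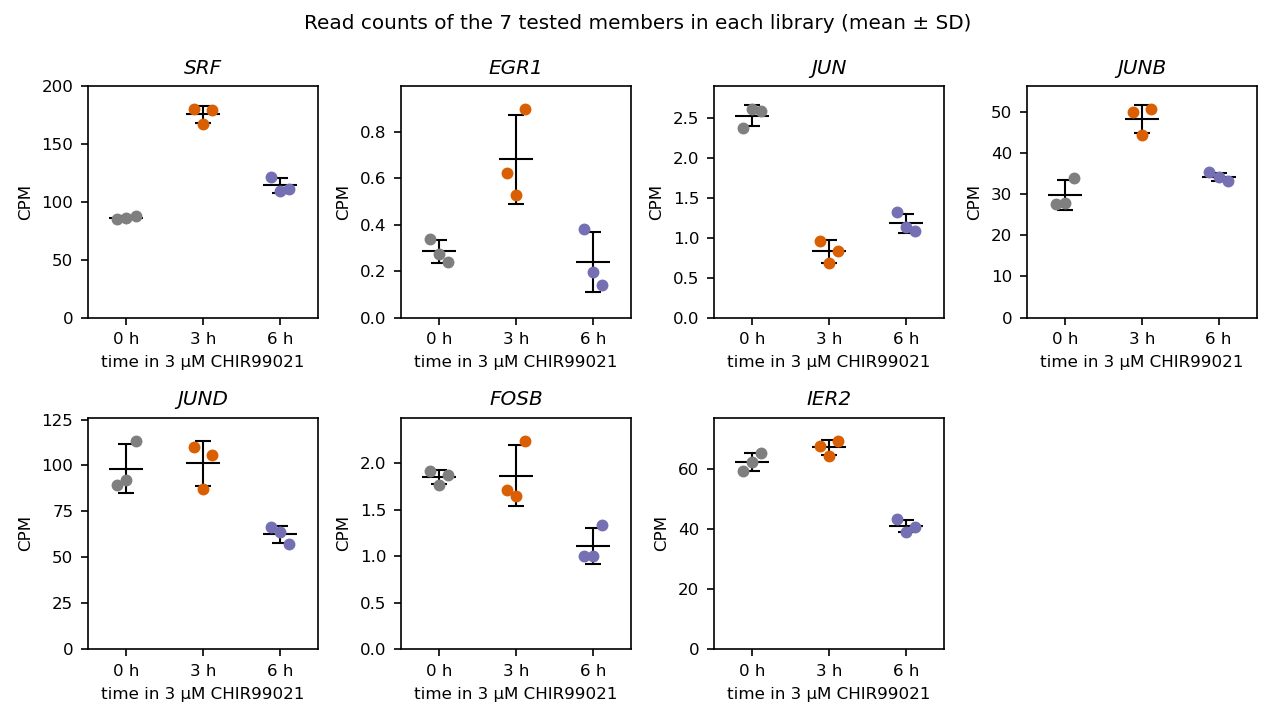
CPM (linear axes from 0) of the 7 tested genes at 0 h, 3 h and 6 h of 3 µM CHIR99021; points are libraries, bars the mean ± SD of 3. SRF, EGR1 and JUNB peak at 3 h, JUN is lowest at 3 h, and JUND, FOSB and IER2 are lowest at 6 h.

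**Figure D2:**
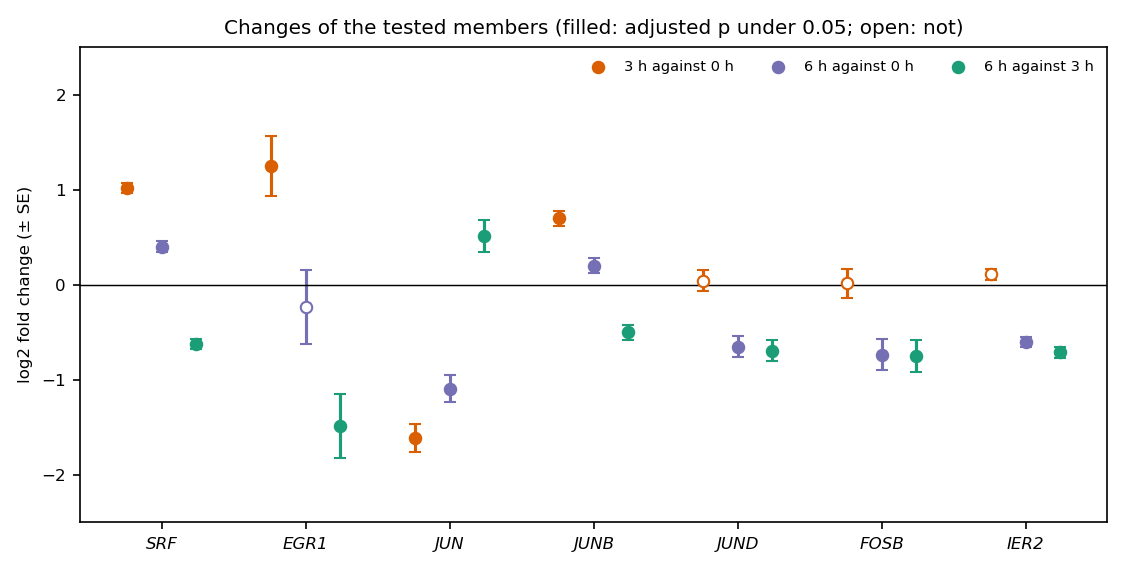
Log2 fold changes ± SE of the same genes, for 3 h against 0 h, 6 h against 0 h and 6 h against 3 h; filled points have an edgeR adjusted p under 0.05. JUN has the lowest value at 3 h against 0 h, -1.61, and is the only 1 of the 7 above 0 at 6 h against 3 h, at 0.52.

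SRF, the CArG box factor that drives many early response and cytoskeletal genes, doubled within 3 h. It had 85.4, 86.0 and 87.9 CPM at 0 h, 180.1, 167 and 179 CPM at 3 h, and 121.5, 109.7 and 111 CPM at 6 h. The 3 times did not overlap, and the spread between replicates was small beside the steps between times. Means were 86.4 ± 1.28, 175 ± 7.29 and 114 ± 6.39 CPM at 0 h, 3 h and 6 h. SRF was 2.03-fold higher at 3 h than at 0 h (log2 1.02 ± 0.053, edgeR adjusted p = 1.21e-09). At 6 h it was still 1.32-fold above 0 h (log2 0.40 ± 0.053, edgeR adjusted p = 1.08e-05), after it fell by 0.62 on the log2 scale relative to 3 h (SE 0.053, edgeR adjusted p = 9.71e-07). All of these calls and directions held under the 18 alternatives run.

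EGR1, known as a target of SRF, was highest at 3 h, at the bottom of the range that was tested. The EGR1 promoter above holds a pair of CArG boxes, but whether SRF took part in the change was not tested. EGR1 counts were 19, 16 and 13 reads at 0 h, 29, 27 and 44 at 3 h, and 18, 9 and 6 at 6 h. Every 3 h library lay above every other library, and the 0 h and 6 h libraries overlapped. Means were 0.285 ± 0.0502, 0.683 ± 0.192 and 0.239 ± 0.128 CPM at 0 h, 3 h and 6 h. EGR1 was 2.38-fold higher at 3 h than at 0 h (log2 1.25 ± 0.316, edgeR adjusted p = 0.00309). At 6 h it was lower than at 3 h by a log2 fold change of -1.49 ± 0.341 (edgeR adjusted p = 0.00305), and its difference from 0 h did not pass (-0.24 ± 0.389, edgeR adjusted p = 0.603).

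EGR2 and EGR3, the family members linked to restraint of lymphocyte activation, were close to the limit of detection and were not tested with the other genes. EGR2 had 3, 3 and 6 reads at 0 h, 5, 9 and 11 at 3 h, and 3, 3 and 2 at 6 h. Summed over libraries, the 3 h level was 2.39 times that at 0 h (95% counting interval 1.16 to 5.21), and the 0 h and 3 h libraries overlapped. With no filter on low counts its edgeR adjusted p was 0.0717 at 3 h against 0 h and 0.0618 at 6 h against 3 h, so neither passed. EGR3 was lowest at 6 h: it had 10, 8 and 13 reads at 0 h and 6, 8 and 10 at 3 h, but 1, 0 and 0 at 6 h. The single read at 6 h makes the 6 h level 0.0398 times that at 0 h (95% counting interval 0.000977 to 0.239), and 0.0449 times that at 3 h (0.00109 to 0.275). All 6 h reads came from 6 h replicate 9, and without that library the 6 h level was 0. Without 6 h replicate 10 the ratios were 0.060 and 0.068. An exact two-sided permutation test over libraries gave p = 0.1 for each, the smallest that 3 against 3 allows, and the unfiltered edgeR fit gave adjusted p of 6.31e-06 and 7.76e-05. These intervals cover counting error only.

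**Figure D3:**
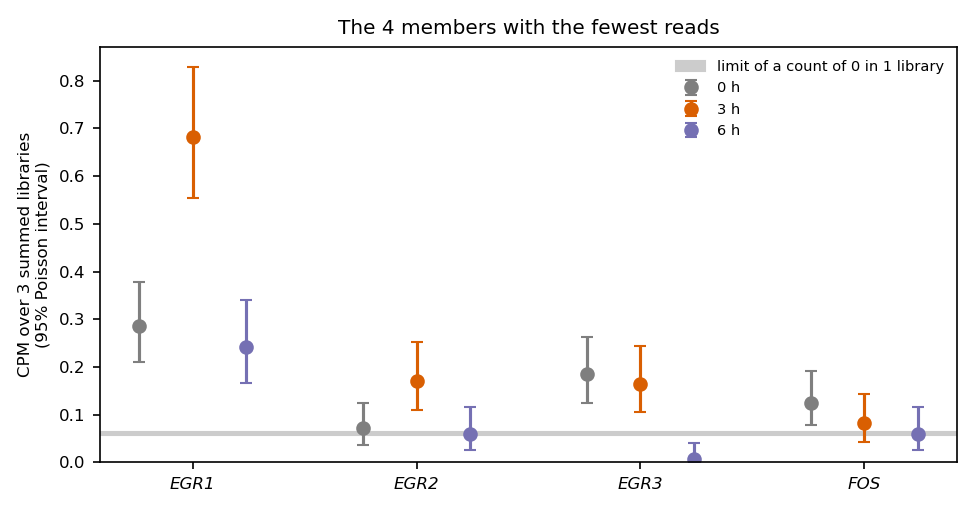
CPM over the 3 summed libraries of each time with 95% Poisson intervals for the 4 members with the fewest reads; the grey band is the level that a count of 0 allows in 1 library. EGR1 and EGR2 are highest at 3 h, and the EGR3 value at 6 h lies below the band.

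The remaining EGR family member of the table that was tested, EGR4, was highest at 3 h. It averaged 0.143 ± 0.0208, 1.24 ± 0.192 and 0.126 ± 0.0310 CPM at 0 h, 3 h and 6 h. The 0 h and 6 h levels were close to the limit of detection. EGR4 passed the filter on low counts only through its 3 h libraries, so the tests of its peak describe it and give no separate evidence. Its level at 3 h was 8.52-fold that at 0 h (log2 3.09, edgeR adjusted p = 8.38e-08), and at 6 h it was 9.71-fold below 3 h (log2 -3.28, edgeR adjusted p = 6.94e-07). NAB2, a corepressor that binds EGR proteins and is itself an EGR target, was lower at both times, with 14.5 ± 0.773, 7.63 ± 0.541 and 9.19 ± 0.910 CPM at 0 h, 3 h and 6 h. Its log2 fold change was -0.92 at 3 h (edgeR adjusted p = 3.29e-07) and -0.66 at 6 h (edgeR adjusted p = 8.04e-06). The related corepressor NAB1 was higher at 3 h by 0.21 on the log2 scale (edgeR adjusted p = 0.0110). That call passed in 14 of 18 alternatives and was lost, among others, with upper-quartile factors and with library size alone.

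JUN, the founding AP-1 subunit, was the 1 gene of the 7 that was lower at 3 h. It had 133, 152 and 140 reads at 0 h, 45, 35 and 41 at 3 h, and 62, 52 and 47 at 6 h. In CPM, no library at 3 h or 6 h reached the lowest at 0 h. Means were 2.53 ± 0.130, 0.829 ± 0.140 and 1.18 ± 0.123 CPM at 0 h, 3 h and 6 h. JUN was 3.06-fold lower at 3 h (log2 -1.61 ± 0.148, edgeR adjusted p = 3.25e-07) and still lower at 6 h (log2 -1.10 ± 0.141, edgeR adjusted p = 8.26e-06). The partial return from 3 h to 6 h was 0.52 ± 0.169 on the log2 scale (edgeR adjusted p = 0.0240). It passed in 13 of 18 alternatives and was lost with DESeq2 (adjusted p = 0.0513) and without 3 h replicate 6, 3 h replicate 7 or 6 h replicate 9 (edgeR adjusted p = 0.104, 0.0565 and 0.0938).

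JUNB, the JUN relative that often counters JUN at shared AP-1 sites, went up while JUN went down. It had 27.5, 27.8 and 34.0 CPM at 0 h, 49.9, 44.3 and 50.6 CPM at 3 h, and 35.3, 34.1 and 33.1 CPM at 6 h. The 3 h libraries stood clear of all others, and the 6 h libraries overlapped untreated replicate 3. JUNB was 1.62-fold higher at 3 h than at 0 h (log2 0.70 ± 0.080, edgeR adjusted p = 3.64e-06) and lower at 6 h than at 3 h (log2 -0.50 ± 0.080, edgeR adjusted p = 0.000236). Its small excess at 6 h over 0 h (log2 0.20 ± 0.081, edgeR adjusted p = 0.0405) passed in only 7 of 18 alternatives. It was lost without untreated replicate 1 or 2, without 3 h replicate 5, or without any 1 of the 6 h replicates (edgeR adjusted p = 0.162, 0.155, 0.0509, 0.108, 0.0762 and 0.0565), and its sign turned with scaling by library size alone (-0.038). HOOK2, which overlaps JUNB on the opposite strand, averaged 10.9 ± 0.129 CPM at 3 h and 16.6 ± 1.19 CPM at 0 h (log2 -0.61). The strand setting of the counting is not given in the sources used here, and reads of the overlap cannot be told apart without it.

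JUND, the most constitutive JUN gene, did not pass at 3 h and was lower at 6 h. It had 89.2, 91.9 and 113.5 CPM at 0 h, 110.2, 87.1 and 106 CPM at 3 h, and 66.7, 63.5 and 57.2 CPM at 6 h. The 0 h and 3 h libraries overlapped, and all 6 h libraries lay below both. The change at 3 h against 0 h was 0.04 ± 0.108 (edgeR adjusted p = 0.750), and its sign turned with upper-quartile factors and with library size alone. At 6 h JUND was lower than at 0 h by a log2 fold change of -0.65 ± 0.109 (edgeR adjusted p = 0.000260) and lower than at 3 h by -0.69 ± 0.110 (edgeR adjusted p = 0.000460).

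Per kilobase of exon sequence, the JUN family of these cells was mostly JUND and JUNB, and its make-up shifted towards JUNB. JUND made up 75.5 ± 0.310%, 66.9 ± 1.25% and 63.7 ± 1.10% of the summed JUN, JUNB and JUND level at 0 h, 3 h and 6 h. JUNB made up 23.5 ± 0.242%, 32.8 ± 1.27% and 35.7 ± 1.12%. JUN made up 1.03 ± 0.110%, 0.288 ± 0.0228% and 0.633 ± 0.0340%. For every one of these shares the 3 times did not overlap. The ratio of JUNB to JUN, per kilobase, was 22.9 ± 2.41, 115 ± 12.8 and 56.6 ± 3.98 at 0 h, 3 h and 6 h, so 5.01 times as large at 3 h as at 0 h. The summed family level was 69.8 ± 9.18, 81.0 ± 8.47 and 52.6 ± 3.19 CPM per kilobase. Exact two-sided permutation tests of each share and of the ratio gave p = 0.1 in every comparison, the smallest possible with 3 against 3. The sum gave an exact p of 0.2 at 3 h against 0 h. A ratio within a library does not depend on how libraries are scaled, but it shows only that the genes changed unequally.

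**Figure D4:**
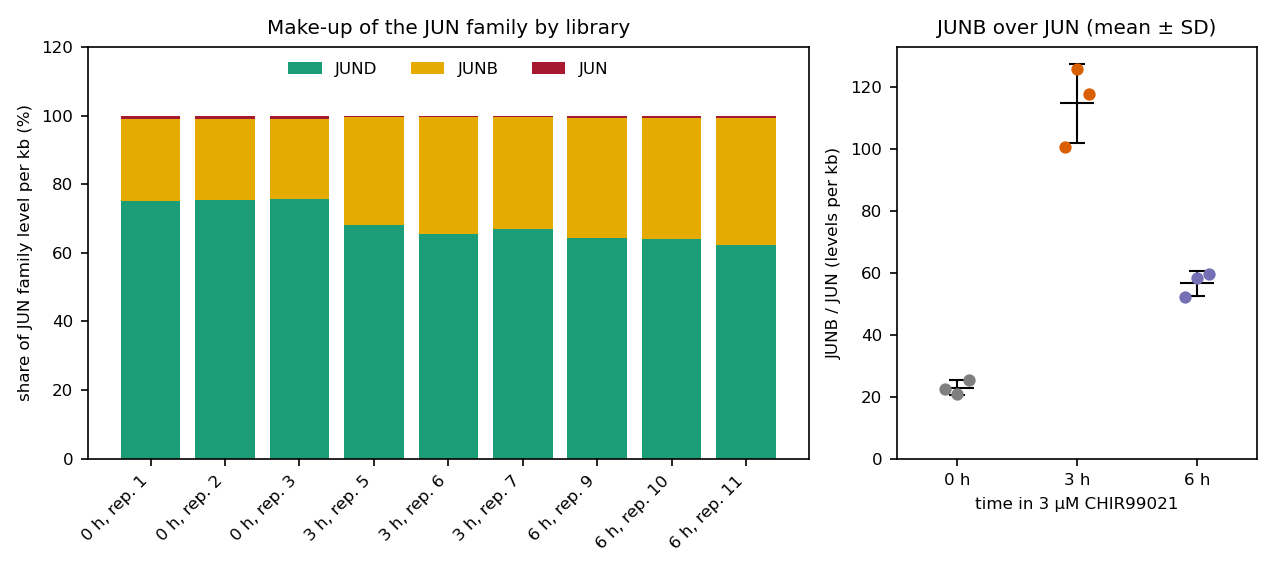
Left, share of JUND, JUNB and JUN in the summed JUN family level per kilobase in each of the 9 libraries (stacked bars, from 0 to 100%); right, JUNB over JUN per library with mean ± SD. JUNB takes a larger share at 3 h and 6 h than at 0 h, and its ratio to JUN is highest at 3 h.

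The FOS partners were scarce. FOSB had 107, 103 and 101 reads at 0 h, 80, 84 and 110 at 3 h, and 47, 46 and 58 at 6 h. The 0 h and 3 h libraries overlapped in CPM and the 6 h libraries lay below both. Means were 1.85 ± 0.0735, 1.87 ± 0.329 and 1.11 ± 0.193 CPM at 0 h, 3 h and 6 h. FOSB was lower at 6 h than at 0 h (log2 -0.74 ± 0.165, edgeR adjusted p = 0.00118) and than at 3 h (log2 -0.75 ± 0.167, edgeR adjusted p = 0.00258). Its value at 3 h against 0 h was 0.01 ± 0.150 (edgeR adjusted p = 0.945), with a negative sign under upper-quartile and library size scaling. ERCC1, a DNA repair gene that overlaps FOSB on the opposite strand, had 43.0 ± 2.85 CPM at 6 h and 28.2 ± 1.79 CPM at 0 h (log2 0.61), again with the strand caveat.

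FOS itself, the classic early response gene, was at the limit of detection in all libraries. It had 5, 11 and 5 reads at 0 h, 3, 5 and 4 at 3 h, and 2, 1 and 5 at 6 h. The times overlapped, and the summed level at 6 h was 0.470 times that at 0 h (95% counting interval 0.180 to 1.11). That ratio was 0.259 without 6 h replicate 11, and ran up to 0.646 with another library left out. No difference in FOS was detectable at this depth (edgeR adjusted p without a filter = 0.218 at 6 h against 0 h). A rise of FOS that began and ended before 3 h would not have been sampled.

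IER2, which encodes a nuclear early response protein, had the same calls as JUND and FOSB. It had 59.3, 62.5 and 65.5 CPM at 0 h, 67.8, 64.5 and 69.5 CPM at 3 h, and 43.2, 39.2 and 40.8 CPM at 6 h. The 0 h and 3 h libraries overlapped, and the 6 h libraries lay well below both. IER2 was lower at 6 h than at 0 h (log2 -0.60 ± 0.057, edgeR adjusted p = 3.38e-07) and than at 3 h (log2 -0.71 ± 0.057, edgeR adjusted p = 5.39e-07). At 3 h against 0 h its value was 0.11 ± 0.056 (edgeR adjusted p = 0.104). It passed without untreated replicate 3, the library that stood apart (0.14, edgeR adjusted p = 0.0234), and its sign turned with upper-quartile factors (-0.046) and with library size alone (-0.095). The ratio of SRF to IER2 per kilobase was 1.01 ± 0.0366, 1.91 ± 0.0301 and 2.03 ± 0.0324 at 0 h, 3 h and 6 h.

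In order of level per kilobase, JUND led at 0 h with 52.7 ± 7.15 CPM per kilobase and stood at percentile 94.5 of the tested genes. SRF with 20.6 ± 0.305, IER2 with 20.3 ± 1.01 and JUNB with 16.4 ± 2.01 CPM per kilobase came next, and SRF and IER2 did not differ there beyond their spread. JUN (0.715 ± 0.0368), FOSB (0.334 ± 0.0132) and EGR1 (0.0909 ± 0.0160) were far lower, at percentiles 23.8, 15.2 and 4.65. At 3 h SRF, with 41.8 ± 1.73 CPM per kilobase, was at percentile 91.3 and JUN, with 0.234 ± 0.0396, at percentile 13.9. By 6 h JUND (33.5 ± 2.58) and SRF (27.2 ± 1.52) were the highest, and IER2 had dropped to 13.4 ± 0.658 CPM per kilobase, below JUNB with 18.8 ± 0.590.

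Each pattern of calls was shared with many other genes. SRF and JUNB were higher at both times and lower at 6 h than at 3 h, as were 800 genes in all, 5.05% of those tested. JUNB belongs there by its call at 6 h against 0 h, which passed in only 7 of 18 alternatives and turned negative with library size alone (-0.038). EGR1 was higher at 3 h alone, with 456 genes (2.88%) called likewise. JUN was lower at both times and partly back at 6 h, with 561 genes (3.54%). FOSB, JUND and IER2 were lower at 6 h than at both other times and were not called at 3 h against 0 h, with 646 genes (4.08%). By distance between the pairs of log2 fold changes at 3 h and 6 h against 0 h, among 11734 candidate genes with a symbol and a mean of at least 1 CPM, the nearest to SRF were SETBP1, NRAV and ZFTA (distances 0.0194 to 0.0721). Nearest to JUNB were ERCC6L, BORA and WIPF2 (0.00564 to 0.00732), and nearest to JUN were LINC00449, PROSER3 and TRAF3IP2 (0.0682 to 0.0719). TRA2A, ALMS1-IT1 and ICOSLG came nearest to EGR1, but at distances of 0.333 to 0.388. For JUND they were GAS8, FARP2 and ITPR2, for IER2 USP49, NUDT13 and ANKDD1A, and for FOSB UBALD1, MIR29B2CHG and ZNF569. Likeness over these 2 values of 9 libraries describes the shape of the change and nothing else.

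Among the other AP-1 leucine zipper factors, 12 were tested, and at 3 h 3 were higher and 6 lower (median log2 fold change -0.33), where 32.8% and 33.5% of all genes were called in those directions. With upper-quartile factors or library size alone 1 was higher and 7 lower at 3 h, and 0 higher and 7 lower at 6 h. Over all 15847 genes, upper-quartile factors called 3852 higher and 6854 lower at 3 h, and 4352 and 6736 at 6 h. Library size alone called 3468 and 7451 at 3 h, and 3656 and 7504 at 6 h. The median of the 12 at 3 h with library size alone was -0.53, beside -0.22 over all genes. ATF3, a stress-induced repressor, fell, with 25.5 ± 0.645, 8.47 ± 0.730 and 6.55 ± 0.202 CPM at 0 h, 3 h and 6 h (log2 -1.59 and -1.96, edgeR adjusted p = 2.94e-10 and 3.75e-11). MAFF had log2 fold changes of -2.07 at 3 h and -2.15 at 6 h, and BATF3, the dendritic and T cell AP-1 partner, of -1.11 and -2.18, all called. JDP2, a JUN-binding repressor, fell by 0.56 at 3 h. FOSL2, the FRA2 subunit, was highest at 3 h, with 0.609 ± 0.177, 2.14 ± 0.478 and 0.777 ± 0.233 CPM at 0 h, 3 h and 6 h (log2 1.80 at 3 h against 0 h, edgeR adjusted p = 2.07e-05; -1.46 at 6 h against 3 h, edgeR adjusted p = 0.000346). At 6 h against 0 h 2 of the 12 were higher and 6 lower (35.7% and 35.0% of all genes). At 6 h against 3 h 1 was higher and 3 were lower (21.5% and 21.9% of all genes).

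Most cofactors that direct SRF were higher as well. Of 5 tested, 4 were higher and 1 did not pass at both 3 h and 6 h against 0 h (medians 0.46 and 0.44), where 32.8% and 35.7% of all genes were called higher. ELK4, a ternary complex factor that ERK activates, averaged 72.1 ± 14.0, 145.6 ± 9.34 and 119 ± 12.7 CPM at 0 h, 3 h and 6 h (log2 1.01 and 0.72, edgeR adjusted p = 8.97e-05 and 0.000814). ELK3 was higher by 0.73 and 1.21 and ELK1 by 0.37 and 0.34 on the log2 scale. MRTFB was higher by 0.46 and 0.44, calls that each passed in 15 of 18 alternatives. They were lost, among others, with upper-quartile factors and with library size alone. MRTFA gave -0.10 and -0.02 and did not pass. With library size alone 3 were higher and 1 lower at 3 h and 2 higher and 1 lower at 6 h. That scaling called 3468 of all 15847 genes higher and 7451 lower at 3 h, and 3656 and 7504 at 6 h. Of 19 cytoskeletal genes known as SRF targets, 13 were higher and 4 lower at 3 h (median 0.27), and 11 were higher and 4 lower at 6 h (median 0.31). Of all genes, 33.5% were called lower at 3 h and 35.0% at 6 h. WDR1, which promotes actin filament disassembly, was 1.85-fold higher at 3 h (log2 0.88), ACTB, beta-actin, was 1.45-fold higher (log2 0.54), and VCL, vinculin, was lower (log2 -0.69). The cytoskeletal count moved with scaling. With upper-quartile factors it was 6 higher and 4 lower at 3 h, and with library size alone 5 and 5. At 6 h it was 9 higher and 5 lower with upper-quartile factors, and 8 and 5 with library size alone. Calls over all genes moved as well: upper-quartile factors gave 3852 higher and 6854 lower at 3 h, and 4352 and 6736 at 6 h. The cytoskeletal median at 3 h was 0.06 with library size alone, beside -0.22 over all genes. With TMM it was 0.27 beside -0.01.

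Transcripts of the kinase pathways that feed these genes were called in both directions at 3 h. Over all tested genes 32.8% were called higher and 33.5% lower at 3 h, and 35.7% and 35.0% at 6 h. These shares are the background for the counts with TMM that follow. Of all 15847 genes, upper-quartile factors called 3852 higher and 6854 lower at 3 h, and 4352 and 6736 at 6 h. Library size alone called 3468 and 7451 at 3 h, and 3656 and 7504 at 6 h. Of 14 ERK pathway genes, 7 were higher and 4 lower at 3 h (median log2 fold change 0.24), and 8 and 4 at 6 h (0.37). With upper-quartile factors or library size alone they were 5 higher and 5 lower at 3 h, and at 6 h 8 and 6 or 7 and 6. NRAS, a RAS GTPase gene at the head of this cascade, was 1.53-fold higher at 3 h (log2 0.61). MAPK3, which encodes ERK1, was lower at 6 h (log2 -0.66). Of 10 JNK and p38 pathway genes, 4 were higher and 5 lower at 3 h (median -0.20), and 2 and 6 at 6 h (-0.22). With upper-quartile factors or library size alone 2 were higher and 6 lower at 3 h, and at 6 h 0 were higher and 7 or 8 lower. MAPK8, which encodes the JUN kinase JNK1, was higher at 3 h (log2 0.36, edgeR adjusted p = 0.000225) and lower at 6 h (log2 -0.41, edgeR adjusted p = 7.03e-05). MAPKAPK2, a kinase that p38 activates, was lower at both times (log2 -0.39 and -0.68). Of 7 genes that control the turnover of JUN protein, 4 were higher and 1 lower at 3 h (median 0.31), and 3 and 3 at 6 h (0.07). With library size alone they were 3 and 2 at 3 h and 2 and 3 at 6 h. ITCH, a ubiquitin ligase for JUN, was higher at 3 h (log2 0.59), and DET1, which brings JUN to the ligase of COP1, was lower at 3 h and 6 h (log2 -0.68 and -0.96).

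Of 25 further early response genes tested, 8 were higher and 11 lower at 3 h, against 32.8% and 33.5% of all genes. At 6 h 5 of these genes were higher and 14 lower, against 35.7% and 35.0%. With library size alone they were 7 and 13 at 3 h and 4 and 19 at 6 h. Of all 15847 genes, that scaling called 3468 higher and 7451 lower at 3 h, and 3656 and 7504 at 6 h. At 6 h against 3 h 13 were lower and 12 did not pass, where 21.9% of all genes were called lower. Their medians were -0.03, -0.46 and -0.31. SGK1, a kinase gene under steroid and growth factor control, rose, with 0.846 ± 0.0743, 3.89 ± 0.252 and 2.70 ± 0.0809 CPM at 0 h, 3 h and 6 h (log2 2.20 and 1.67, edgeR adjusted p = 1.56e-09 and 3.02e-08). DUSP2, a nuclear phosphatase of ERK, rose by 1.14 at 3 h on the log2 scale. KLF6 and ID1 fell at both times (log2 -0.73 and -1.13, and -1.06 and -1.20). BTG2, an antiproliferative gene, had 199 ± 6.59, 184 ± 2.16 and 112 ± 1.40 CPM at 0 h, 3 h and 6 h (log2 -0.83 at 6 h against 0 h, edgeR adjusted p = 1.20e-09). PPP1R15A, whose product brings phosphatase 1 to eIF2 alpha, had 31.8 ± 2.22 CPM at 6 h against 60.7 ± 3.64 CPM at 3 h (log2 -0.93, edgeR adjusted p = 1.12e-07).

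**Figure D5:**
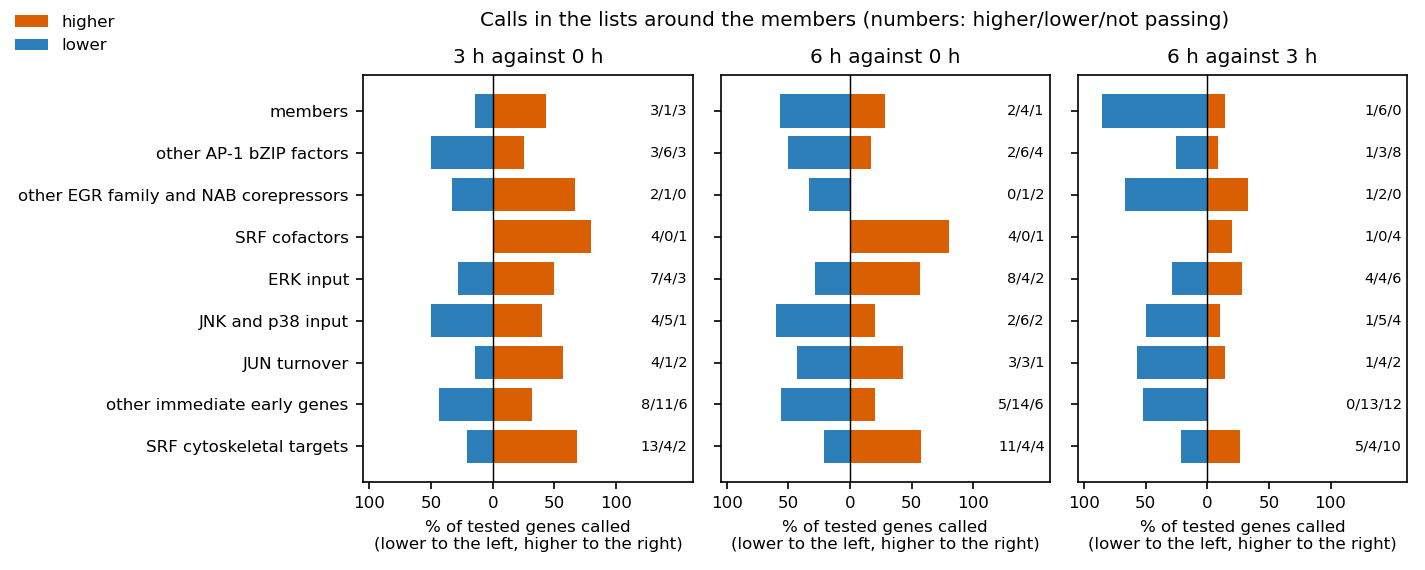
Percent of tested genes of each list called lower (left) or higher (right) in each comparison, with the numbers higher, lower and not passing; the 7 tested members stand at the top. At 6 h against 3 h the members (1 higher, 6 lower) and the other immediate early genes (13 lower, 12 not passing) lie mostly to the left.

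Some of the genes are alike in structure (GENCODE v29). JUN, JUNB, JUND and IER2 have 1 exon in their longest coding transcript, so 4 of 10 against 2.10% of 11440 other tested genes, and 7 of 10 have at most 2 exons, against 6.42%, while FOS and FOSB have 4 and SRF has 7. The AU-rich nonamer UUAUUUAUU, a mark of short-lived mRNA, occurs in the 3′ UTR of FOS and SRF, so in 2 of 10 against 7.87% of the others. At least 3 AUUUA pentamers occur in 5 of 10, near the 38.9% of the others. FOSB, JUNB, JUND and IER2 lie on chromosome 19. The single-exon genes did not share a pattern of calls: JUN fell at 3 h, JUNB rose, and JUND and IER2 were lower at 6 h.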

How the data were processed

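For 9 RNA-seq libraries of Ramos cells the authors deposited a table of counts per Ensembl gene, in whole numbers that were not normalised. GSNAP (aligner), hg19, HTSeq 0.6.0 (counter) and limma 3.30.0 are named in the submitters' processing notes. Annotation release, counting mode and strand setting are not given in the sources used here. The 5 HTSeq summary entries were set aside, and 67.6% to 70.9% of reads lay in genes, which sets the depth (15.0% to 17.6% had no feature). Symbols came from a gene name table matched by identifier (39539 of 60234).

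In R 4.3.3, edgeR 4.0.16 kept genes by filterByExpr (minimum count 10, total 15), scaled libraries by TMM and fitted a robust quasi-likelihood model to all 9 libraries (6 residual degrees of freedom). Tests were two-sided, with Benjamini-Hochberg adjustment over all 15847 genes and a threshold of 0.05. The SE is the size of the log2 fold change divided by the square root of F. Single ratios had exact permutation tests, and low counts had exact 95% intervals of pooled counts. Levels per kilobase used GENCODE v29 exon unions, and promoters came from RefSeq, whose GRCh38.p14 coordinates were not mixed with hg19. The procedure was also run on simulated data in which few genes changed, so that run does not test the scaling where many genes change.

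The alternatives changed the tool (DESeq2 1.42.0; voom in limma 3.58.1), the scaling (size factors as in DESeq2, library size alone, upper-quartile factors), the filter (none; 1 CPM in 3 libraries) or the model (only the groups compared; a minimum fold of 1.2), or left out each library in turn. The 10 genes and the other lists were chosen with earlier results of these data known. Named genes were all 10, up to 4 per list and comparison with the smallest p past the threshold, up to 3 with the highest mean, and 3 nearest genes per member; a part of these is reported. In the list of other early genes, CCL3 and CCL4 had no match. Plots used Python 3.11.15 with matplotlib 3.10.9.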

Additional observations from a re-analysis of the deposited data

Results flagged for a closer look

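The effects at 3 h and at 6 h, each against 0 h, differed for the 7 tested genes, compared as 6 h against 3 h with edgeR's quasi-likelihood test. The log2 fold change at 6 h against 3 h was -1.49 for EGR1, -0.62 for SRF and -0.50 for JUNB, the genes that were called higher at 3 h. It was -0.75 for FOSB, -0.71 for IER2 and -0.69 for JUND, which were not called at 3 h. JUN alone had a positive value, 0.52, which was not called in 5 of the 18 alternatives. Of all genes tested, 21.5% were called higher and 21.9% lower in this comparison. Groups of 3 libraries are too small for the test of a single outlying library.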

How the results depend on the processing

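No paired analysis was possible because the groups share no replicate numbers (1 to 3 at 0 h, 5 to 7 at 3 h, 9 to 11 at 6 h). For the 7 tested genes, 344 of the values recomputed under the alternatives kept direction and side of the threshold, 15 lost a call with their sign kept, 1 gained a call and 15 changed sign. Of the last, JUNB at 6 h against 0 h with library size alone also lost its call. The genes higher at 6 h against 0 h numbered 2, but 1 (SRF) with upper-quartile factors, library size alone, 1 CPM in 3 libraries, only the 2 groups compared or a minimum fold of 1.2, and 1 to 2 with a library left out. Those higher at 6 h against 3 h numbered 1, but 0 with DESeq2 or a minimum fold of 1.2, and 0 to 1 with a library left out. All genes called at 6 h against 3 h numbered 6871, but 2504 at a minimum fold of 1.2. Signs turned mostly at 3 h against 0 h in genes that were not called: FOSB gave -0.14, -0.19 and -0.033 and JUND -0.11, -0.16 and -0.0044 with upper-quartile factors, library size alone and 1 CPM in 3 libraries, and IER2 -0.046 and -0.095 with those 2 scalings. With a library left out, FOSB ran from -0.14 to 0.10, JUND from -0.030 to 0.15, and EGR1 at 6 h against 0 h from -0.75 to 0.027. JUNB at 6 h against 0 h was -0.038 with library size alone. Of 120 called results for the other lists' genes, 82 held under every alternative, and with library size alone PPP1R15A, TPM4 and TLN1 at 3 h turned to -0.0072, -0.015 and -0.030. Scaling matters: library size alone moved the median of all genes to -0.22 in both comparisons with 0 h and left 31.8% of calls higher at 3 h and 32.8% at 6 h, upper-quartile factors left 36.0% and 39.2% (medians -0.17 and -0.13), and TMM 49.5% and 50.5%. At 6 h against 3 h 49.5% were higher with TMM and 43.0% with library size alone. For SRF, and for JUN against 0 h, calls and directions held in all 18. The causes were not tested. FOS, EGR2 and EGR3 had too few reads to be tested with the other genes.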
